A study of Mus musculus with 7 samples.

Results

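The cells described here are bone marrow progenitors that carried transcripts of Dntt and Flt3 and lacked those of Il7r, Rag1 and the granule gene Elane. They held few or none of the granule genes Prtn3 and Ctsg. They were selected on their own counts: at least 2 UMIs of Dntt, at least 1 of Flt3, 0 of Il7r, Rag1 and Elane, and at most 1 of Prtn3 and Ctsg together. A UMI is a molecular tag that counts 1 captured transcript. The gate was applied to barcodes that had 1000 UMIs or more, 500 or more genes detected, and no more than 10% of UMIs from mitochondrial genes. It held 1167 of the 24430 kept cells, out of 36465 deposited barcodes. The working name for these cells is lymphoid-primed progenitors. Because the gate used Dntt, Flt3 and the genes held at 0, the levels of those genes are given as a description with no test.

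All libraries came from LSK cells of mouse bone marrow, which are sorted as negative for lineage markers and positive for Sca-1 and cKit. The 3 KO-labelled libraries came from mice of genotype 129S1/C57Bl/6, B4-/-, described as full knockouts of B4galt1, and the 4 WT-labelled libraries from 129S1/C57Bl/6 mice. No treatment, age, sex or promoter is labelled, and nothing says that replicates came from separate animals, so p-values measure the spread between these libraries, which may be technical. The series title names Wnt, Muc13 and the megakaryocyte fate of stem cells. B4galt1 encodes a galactosyltransferase, an enzyme of glycoprotein sugar chains.

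Dntt encodes terminal deoxynucleotidyl transferase, a polymerase that adds bases without a template at the joints of rearranging antigen receptor genes. It works with the end-joining machinery, which includes the Ku proteins, and it needs the cuts made by Rag1 and Rag2. In the marrow, Dntt and the cytokine receptor Flt3 appear in multipotent progenitors that lean to the lymphoid fates before the interleukin-7 receptor and Rag1 do. Satb1, Notch1 and Ikzf1 are regulators long associated with that early lymphoid program, and Ebf1 and Pax5 with the later commitment to B cells. Mpo, Elane, Prtn3 and Ctsg encode granule proteins of the neutrophil lineage, and Hlf, Mecom and Procr mark stem cells.

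The libraries held 14970791 to 89747946 UMIs, and 1172 to 8862 cells were kept in each. The opening 5 bases of the barcodes took 399 sequences in KO-labelled replicate 3 and WT-labelled replicate 4 (list B) and 614 to 644 in the other 5 libraries (list A), although the labels name 1 kit. List B libraries kept 96.2% to 98.3% of their barcodes, list A libraries 32.4% to 49.9%. KO-labelled replicate 3 and WT-labelled replicate 4 shared 68 kept barcodes, and no other pair shared more than 2. No shared barcode was a gated cell in both libraries of a pair. Over all kept cells, B4galt1 stood at 51.2, 55.6 and 27.4 CPM, the UMIs of a gene scaled to a fixed library total, in KO-labelled replicates 1 to 3 and at 56.4, 69.2, 56.7 and 34.8 in WT-labelled replicates 1 to 4. The groups overlapped, and since the labels do not say what was deleted and the assay reads 3′ ends, this level does not check the labels. Xist was near 0 in the gated cells of KO-labelled replicate 3 and WT-labelled replicates 3 and 4, so each label held libraries with and without it. Both list B libraries were near 0 for Xist, so its presence is partly confounded with the barcode list. Doublets were not removed.

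Gated cells made up 0.651%, 1.33% and 1.65% of the kept cells in KO-labelled replicates 1 to 3, which is 20, 23 and 113 cells. Their exact 95% binomial intervals ran from 0.398% to 1.00%, from 0.847% to 1.99% and from 1.36% to 1.98%, and cover counting error only. In WT-labelled replicates 1 to 4 the shares were 8.60%, 9.90%, 9.07% and 7.36%, which is 107, 116, 136 and 652 cells. Those intervals ran from 7.10% to 10.3%, from 8.25% to 11.8%, from 7.66% to 10.6% and from 6.82% to 7.92%. Every WT-labelled library lay above every KO-labelled one. The gated share was 1.21% ± 0.510 (SD, n = 3) under the KO label and 8.73% ± 1.06 (SD, n = 4) under the WT label, a 7.21-fold difference. The two-sided exact permutation test over libraries gave p = 0.0286, the smallest it can give, and 0.0571 after Benjamini-Hochberg adjustment over the 4 gates compared. Within list A the difference was -8.20 percentage points, and in list B the single libraries stood at 1.65% and 7.36%.

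The ratio between the labels changed with the granule condition more than the difference in percentage points did. Among all cells with Dntt and Flt3 at the gate's levels, 86.3%, 82.5% and 85.8% failed the condition on Elane, Prtn3 and Ctsg in the KO-labelled libraries. In the WT-labelled libraries 44.0%, 38.3%, 42.5% and 56.4% failed it, and the groups did not overlap. Stem-gated cells, defined by at least 1 UMI each of Hlf, Procr and Mecom, failed the same condition in 82.1%, 57.3% and 80.5% of cells under the KO label. Under the WT label, 42.7%, 39.1%, 38.6% and 68.3% of stem-gated cells failed it, and these groups overlapped (exact permutation p = 0.0857). Their median depths were 6482 to 10325 UMIs. The summed level of the granule genes over all kept cells was 1366 to 6943 CPM in the KO-labelled and 323 to 1040 CPM in the WT-labelled libraries. The part of the granule level in the gated share was not tested.

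Without the granule condition, a setting chosen after seeing the data, the share was 6.18%, 8.70% and 15.3% in the KO-labelled libraries and 16.6%, 16.6%, 17.3% and 18.8% in the WT-labelled ones. The groups still did not overlap, and the difference was -7.27 percentage points, or 1.72-fold (exact permutation p = 0.0286, smallest possible). As a share of Flt3-positive cells that met the granule condition, gated cells stood at 9.71%, 11.2% and 21.3% against 23.6%, 24.8%, 21.2% and 30.3%. KO-labelled replicate 3 and WT-labelled replicate 3 overlapped there, and the exact permutation p was 0.0571. With every cell thinned to 3000 UMIs the shares were 0.984%, 2.43% and 4.63% against 7.94%, 9.59%, 9.55% and 7.81%, a 3.25-fold difference. Thinning left out cells below that depth and kept 2947, 1563 and 6808 KO-labelled cells and 1172, 1074, 1455 and 8693 WT-labelled cells. The gate was applied to the thinned counts, so its granule, Il7r and Rag1 limits were easier to meet and its Dntt limit harder. KO-labelled replicate 3 then held 315 gated cells in place of 113, and 170 cells failing only the granule condition in place of 933.

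**Figure D1:**
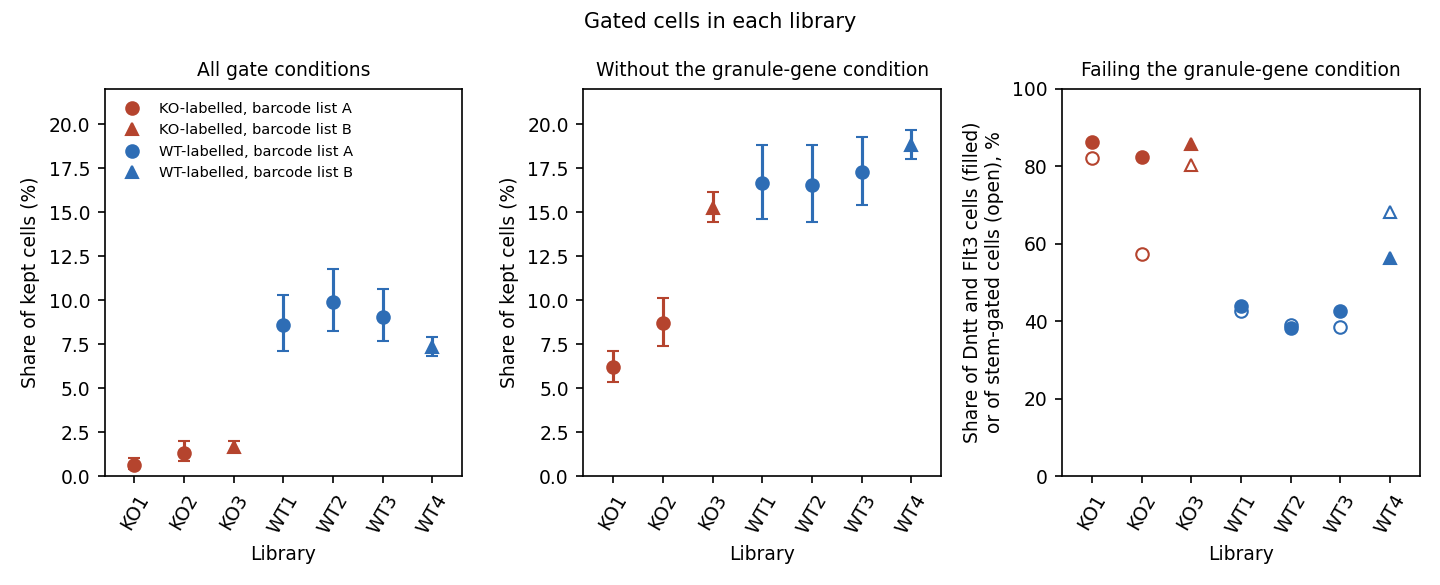
Share of kept cells in the gate in each library (left), the same share without the granule-gene condition (middle), both with exact 95% binomial intervals, and the share of Dntt and Flt3 cells or stem-gated cells failing that condition (right). KO-labelled libraries stand at 0.651% to 1.65% on the left and at 6.18% to 15.3% in the middle, while WT-labelled libraries stand at 7.36% to 9.90% and at 16.6% to 18.8%.

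The neighbouring gates differed from this one in a single condition. Cells with 0 Dntt UMIs made up 5.24%, 9.80% and 5.31% of KO-labelled and 25.2%, 26.3%, 29.0% and 14.1% of WT-labelled libraries (exact permutation p = 0.0571). Cells with Il7r or Rag1 made up 0.456%, 0.464% and 0.904% against 3.86%, 2.90%, 3.73% and 2.46% (exact permutation p = 0.0286). Cells that failed only the granule condition made up 5.53%, 7.36% and 13.6% against 8.04%, 6.66%, 8.20% and 11.5%, and these overlapped (exact permutation p = 0.914). The adjusted p over the 4 gates were 0.0762, 0.0571 and 0.914. In the Dntt-zero and the Il7r or Rag1 gates every KO-labelled library lay below every WT-labelled one, and in the granule-positive gate they overlapped.

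The gated cells carried median Dntt counts of 4, 4 and 9 UMIs in the KO-labelled libraries and 5, 6, 6 and 5 in the WT-labelled ones. Just inside the threshold, 5, 2, 15, 24, 19, 29 and 134 cells held exactly 2 Dntt UMIs, in library order from KO-labelled replicate 1 to WT-labelled replicate 4. Just outside it, 25, 14, 53, 33, 44, 69 and 248 cells held 1. The largest Dntt count in a cell was 75, in KO-labelled replicate 3, where 48.7% of gated cells held 10 or more against 13% to 36.2% elsewhere. Summed over gated cells, Dntt stood at 1133, 876 and 1670 CPM under the KO label and at 795, 842, 833 and 938 CPM under the WT label. Flt3 stood at 988, 895 and 774 CPM and at 655, 885, 753 and 724 CPM. In stem-gated cells, 4.4% to 11.1% held 2 or more Dntt UMIs, against 8.37% to 23.1% of all kept cells. Gated cells had median depths of 6331.5, 6312 and 8311 UMIs under the KO label and 9416, 11217.5, 10301 and 7541 under the WT label. In KO-labelled replicate 1 a single UMI was worth 8.03 CPM and in WT-labelled replicate 4 it was worth 0.176 CPM.

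The sort and the name were checked against other transcripts in the gated cells. Kit, which encodes cKit, stood at 112 to 236 CPM and Ly6a, which encodes Sca-1, at 14.5 to 58.2 CPM over the 7 libraries. Cd3e, of the T cell receptor complex, was at 0 in 6 libraries and at 0.176 CPM in WT-labelled replicate 4. Other genes of the T, NK and innate lymphoid list were present, and 12 of its 14 genes had counts. The summed level of that list was 31.3 to 210 CPM under the KO label and 85.6 to 244 under the WT label. In Dntt-zero cells it was 140 to 209 CPM under the KO label and 112 to 226 under the WT label. Pax5 was at 0 in 6 libraries and stood at 8.03 CPM, a single UMI, in KO-labelled replicate 1. Prtn3, held to at most 1 UMI in a cell, was still present at 88.4, 81.3 and 54.1 CPM under the KO label and at 26.4, 29.8, 24.7 and 46.8 CPM under the WT label. As a gate gene, Prtn3 is given as a description only.

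Compared with cells of the same libraries that met every condition but had 0 Dntt UMIs, the gated cells were higher in lymphoid genes that the gate did not use and lower in stem cell and megakaryocyte genes. Of 11247 genes tested with edgeR's quasi-likelihood test and the library as a block, 1163 (10.3%) were higher and 1202 (10.7%) were lower at a Benjamini-Hochberg adjusted p below 0.05. Gated cells were deeper, with median UMIs of 6312 to 11217.5 against 4600 to 8711. With all cells thinned to 3000 UMIs, 848 genes were higher and 882 lower. The gated sums enter each of the 3 comparisons between neighbours, so those comparisons are not independent of each other.

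Of the lymphoid priming list, 15 of 16 genes were tested, 11 were higher and 0 lower, with a median log2 fold change of 0.82 against 0.00 over all genes. Satb1, a chromatin organiser of lymphoid progenitors, stood in gated cells at 712, 660 and 332 normalised CPM in the KO-labelled and 447, 633, 472 and 265 in the WT-labelled libraries. In Dntt-zero cells Satb1 stood at 127, 158 and 51.5 and at 143, 195, 157 and 78.9. Every library was higher in its gated cells, with a log2 fold change of 1.89 (SE 0.14, adjusted p = 1.12e-05). Notch1, the receptor that directs T cell fate, was higher by 1.65 (SE 0.16, adjusted p = 3.56e-05), at 85.0 to 222 CPM in gated and 20.5 to 72.4 in Dntt-zero cells. Ighm, the heavy chain constant region of IgM, was higher by 2.75 (SE 0.33, adjusted p = 0.00111), at 255 to 554 against 15.9 to 187 CPM. Mef2c, a transcription factor of lymphoid progenitors, was higher by 0.80 (SE 0.06, adjusted p = 6.01e-17).

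Of the B-lineage list, 6 of 15 genes were abundant enough to test and all 6 were higher, with a median log2 fold change of 3.17. The abundance filter took the gated and Dntt-zero sums together, so a gene could pass it through its gated sums alone. The count of 6 of 6 is therefore a description and not separate support. Arpp21, a gene of early B and T cell precursors, stood at 144, 117 and 121 normalised CPM in the gated cells of the KO-labelled libraries and at 169, 198, 187 and 118 in the WT-labelled ones. In Dntt-zero cells Arpp21 was at 0 to 14.2 CPM, and the log2 fold change was 3.85 (SE 0.14, adjusted p = 2.18e-16). Rag2, the partner of Rag1 and not used by the gate, was higher by 3.97 (SE 0.44, adjusted p = 3.61e-10), but was at 0 in gated cells of KO-labelled replicates 1 and 2 and at 7.78 to 16.6 CPM in the other 5 libraries. Ebf1, the commitment factor of B cells, was higher by 3.46 (SE 0.51, adjusted p = 0.000428). Its level was 136 CPM in KO-labelled replicate 1, from 18 UMIs, and 5.84 to 25.7 CPM in the other libraries. Blnk, the B cell adaptor that links the receptor to its signalling enzymes, was higher by 2.89 (SE 0.26, adjusted p = 1.38e-12).

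Blnk is the neighbour of Dntt on chromosome 19 of GRCm38. Dntt lies on the plus strand at chr19:41029275-41059525 and Blnk on the minus strand at chr19:40928927-40994535, so the pair lies head to head. Il12a, a subunit of the cytokine interleukin-12, lies at chr3:68690644-68698547. The RefSeq promoters of the gene that defines the gate, of its neighbour and of Il12a are printed because all of them were higher in gated cells, Dntt by the rule. Capitals mark the E-box CAGGTG or its reverse complement CACCTG, a core to which E proteins bind.
Dntt, chr19:41029025-41029324, plus strand: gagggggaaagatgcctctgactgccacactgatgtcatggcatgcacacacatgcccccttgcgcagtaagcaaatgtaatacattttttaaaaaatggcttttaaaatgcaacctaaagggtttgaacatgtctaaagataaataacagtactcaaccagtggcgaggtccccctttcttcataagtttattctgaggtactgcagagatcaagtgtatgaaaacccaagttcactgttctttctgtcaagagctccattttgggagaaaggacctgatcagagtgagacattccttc
Blnk, chr19:40994172-40994471, minus strand: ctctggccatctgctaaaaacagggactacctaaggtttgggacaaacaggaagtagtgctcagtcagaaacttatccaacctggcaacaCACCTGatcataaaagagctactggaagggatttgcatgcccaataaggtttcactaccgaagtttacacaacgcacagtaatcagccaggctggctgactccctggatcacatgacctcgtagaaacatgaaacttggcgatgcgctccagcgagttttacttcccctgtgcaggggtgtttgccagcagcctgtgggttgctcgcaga
Il12a, chr3:68690394-68690693, plus strand, the first of 2 listed starts: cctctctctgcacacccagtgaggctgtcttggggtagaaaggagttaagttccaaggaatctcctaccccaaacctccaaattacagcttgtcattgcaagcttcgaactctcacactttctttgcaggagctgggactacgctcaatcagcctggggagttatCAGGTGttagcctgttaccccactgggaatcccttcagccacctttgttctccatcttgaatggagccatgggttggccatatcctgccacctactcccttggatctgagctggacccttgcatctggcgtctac
Each window runs from 250 bases before the RefSeq start to 50 after it, on build GRCm38.p6. For Blnk the RefSeq start lies inside the GENCODE gene, so the window does not hold the GENCODE start given above. The motif on either strand occurred at base 91 of the Blnk window, at base 166 of the Il12a window and not in the Dntt window, and it occurs in 20.2% of 32851 RefSeq promoters of this length.

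The 10 largest rises among genes that moved alike in 7 of 7 libraries included Arpp21 and Ighm and went beyond the lists. Cmah, which makes the sialic acid Neu5Gc, stood at 250, 158 and 197 normalised CPM in the gated cells of KO-labelled libraries and at 80.0, 220, 208 and 132 in those of WT-labelled ones. In Dntt-zero cells Cmah stood at 5.12 to 10.3 CPM, and its log2 fold change was 4.26 (SE 0.13, adjusted p = 8.84e-25). Il12a was higher by 2.32 (SE 0.12, adjusted p = 5.60e-12), at 99.2 to 459 against 23.4 to 88.7 CPM. Ighv1-77, a heavy chain variable segment, was higher by 3.44, Fgf13 by 2.66, Ncf1, a subunit of the phagocyte oxidase, by 2.03, and AA467197 by 2.29. The surface receptors Clec12a and Cd33 were higher by 2.41 and 2.33. Reads of variable segments can be shared between near-identical copies, so the Ighv1-77 value is uncertain.

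Of the end-joining list, which also held the chromatin genes Hmgb1 and Hmgb2, 10 of 12 were tested, 4 were higher and 0 lower. The median log2 fold change was 0.12. Xrcc6, which encodes Ku70, stood at 152, 105 and 226 normalised CPM in gated cells of KO-labelled libraries and at 107, 91.1, 104 and 134 in those of WT-labelled ones. In Dntt-zero cells Xrcc6 stood at 41.1 to 75.6 CPM, below every gated value, and the log2 fold change was 1.06 (SE 0.11, adjusted p = 5.26e-08). Poll, a polymerase of the same family as Dntt, was higher by 0.82 (SE 0.18, adjusted p = 0.000368) in 7 of 7 libraries. The other members called higher were Hmgb1 and Hmgb2, at 0.17 and 0.29.

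Of the lymphoid transcription factors, 16 of 17 were tested, 5 were higher and 2 lower. Ikzf1 was higher by 0.80 (SE 0.07, adjusted p = 2.68e-12) and Ets1 by 1.21 (SE 0.14, adjusted p = 1.64e-10), each in 7 of 7 libraries. Zeb2, Bcl11a and Tcf4 were the others called higher, and Ikzf2 and Myb were lower. Of the T, NK and innate lymphoid list only 4 of 14 genes were tested. Lck, the kinase of T cell receptor signalling, was higher by 1.59, and Gata3, a factor of T cell development, was lower at -1.36.

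Of the stem cell list, 11 of 12 genes were tested, 0 were higher and 10 lower, with a median log2 fold change of -1.44. Hlf stood at 45.5, 134 and 129 normalised CPM in gated cells of KO-labelled libraries and at 193, 252, 226 and 150 in those of WT-labelled ones. In Dntt-zero cells Hlf stood at 369, 467 and 294 and at 543, 669, 633 and 362 CPM, so each library was lower in its gated cells. The log2 fold change was -1.44 (SE 0.08, adjusted p = 5.00e-20). Mecom differed by -1.45 (SE 0.08, adjusted p = 3.49e-13) and Procr, the protein C receptor, by -1.93 (SE 0.16, adjusted p = 1.40e-14). Kit and Ly6a, the genes of the sort, were lower, at -0.66 and -0.72.

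Of the megakaryocyte list, 5 of 8 genes were tested and all 5 were lower, with a median log2 fold change of -2.09. Here a gene could pass the abundance filter through its Dntt-zero sums alone, so this count is a description too. Pf4, platelet factor 4, stood in gated cells at 0, 0 and 26.0 normalised CPM under the KO label and at 0, 0.735, 1.95 and 17.2 under the WT label. In Dntt-zero cells Pf4 stood at 26.3, 8.90 and 1181 and at 10.8, 3.91, 12.8 and 319 CPM, with both list B libraries highest, and the log2 fold change was -4.59 (SE 0.17, adjusted p = 3.66e-20). Without the library block the adjusted p for Pf4 was 0.0926. Itga2b, the integrin of platelets, differed by -2.51 (SE 0.22, adjusted p = 3.81e-13). The largest falls were of the granule genes Ngp and S100a8, at -6.16 and -5.48, and of Pcdh7, Dlg2, Palld, Sox6, Plxdc2, Shank3 and Slc18a2, at -3.74 to -2.91. In Dntt-zero cells Ngp stood at 255, 171 and 290 CPM in KO-labelled replicate 1 and WT-labelled replicates 1 and 3 and at 1.10 to 2.36 in the other 4 libraries. S100a8 stood at 1268, 378 and 915 CPM in the same 3 libraries and at 1.11 to 12.5 in the others.

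The remaining lists differed in size and direction. Of the erythroid list, 4 of 7 tested genes were lower and 0 higher, with a median log2 fold change of -0.80. Of the dendritic list, 5 of 7 tested genes were lower and 0 higher, with a median of -1.73. Among those lower were the class II genes H2-Aa, H2-Ab1, H2-Eb1 and Cd74. Of the granulocyte and monocyte list, 3 of 10 were higher and 2 lower. Mpo was higher by 0.68 (SE 0.12, adjusted p = 0.00151) in 5 of 7 libraries, and Csf1r, the receptor of macrophage growth factor, by 1.95 (SE 0.35, adjusted p = 1.15e-05) in 7 of 7. Of the S phase list, 8 of 20 were higher and 0 lower, and of the G2/M list 10 of 20 were higher and 0 lower, with medians of 0.19 and 0.34. Of the Wnt list, 5 of 17 were higher and 2 lower, with a median of -0.02, and the cyclin gene Ccnd1 was higher by 0.73 (SE 0.12, adjusted p = 2.06e-06).

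**Figure D2:**
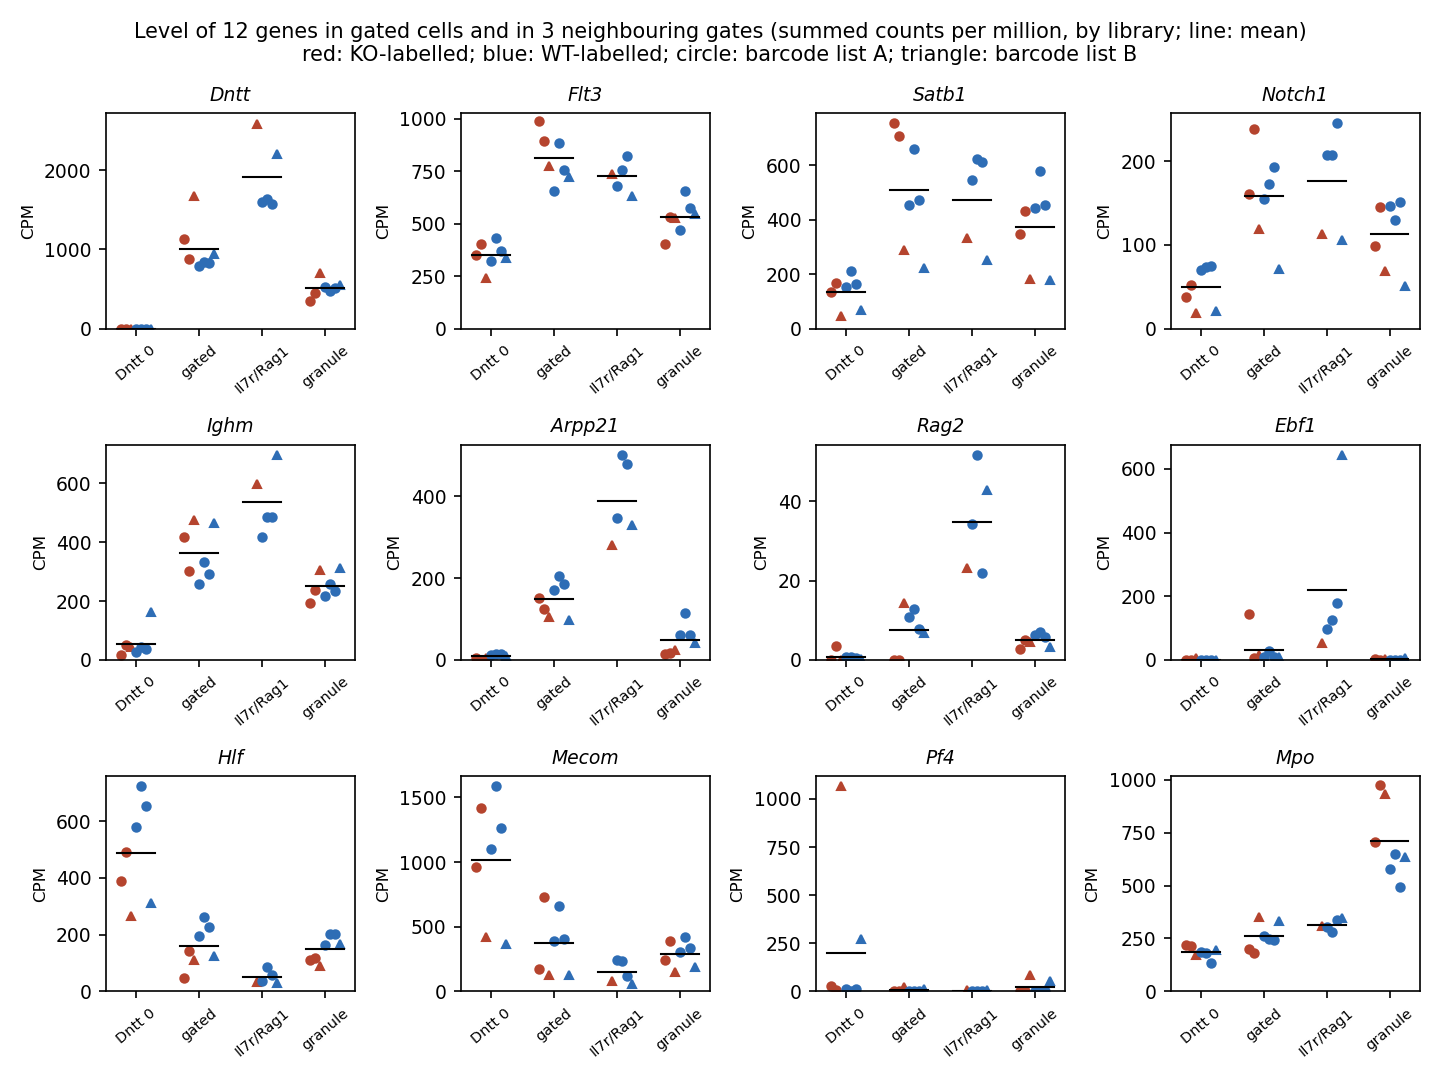
Level in CPM of 12 genes, each point 1 library and each line the mean, in Dntt-zero cells, gated cells, Il7r or Rag1 positive cells (5 libraries) and granule-gene positive cells. Satb1, Notch1, Ighm and Arpp21 are higher in gated than in Dntt-zero cells, Hlf and Mecom are lower, and Dntt and Flt3 differ by the gates' own rules.

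Cells that also carried Il7r or Rag1 were higher in B-lineage and G2/M genes than gated cells and lower in stem cell genes. KO-labelled replicates 1 and 2 held 14 and 8 such cells, fewer than the 20 required, so the fit used 5 libraries. Of 10024 genes tested, 640 (6.38%) were higher and 552 (5.51%) were lower in the Il7r or Rag1 positive cells (edgeR's quasi-likelihood test, library block, Benjamini-Hochberg). Those cells were deeper, with medians of 10582 to 15274 UMIs in the 5 libraries. Thinned to 3000 UMIs, 4 libraries and 6581 genes could be used, and 89 genes were higher and 91 lower.

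Ebf1 stood in Il7r or Rag1 positive cells at 61.1 normalised CPM in KO-labelled replicate 3 and at 91.0, 117, 170 and 746 in the WT-labelled libraries. In the gated cells of the same libraries Ebf1 stood at 17.0, 7.70, 24.4, 9.31 and 12 CPM. The log2 fold change was 4.51 (SE 0.75, adjusted p = 0.030), and the adjusted p was 0.0670, 0.0807 and 0.0919 without KO-labelled replicate 3, WT-labelled replicate 1 or WT-labelled replicate 3. Rag2 was higher by 1.97 (SE 0.23, adjusted p = 2.81e-08) and Arpp21 by 1.41 (SE 0.09, adjusted p = 1.14e-14), each in 5 of 5 libraries. Ly6d, a surface marker of B-cell-biased lymphoid progenitors, was higher by 4.43 (SE 0.72, adjusted p = 0.0251), and WT-labelled replicate 4 held 223 CPM against 3.31 to 25.4 in the others. Without KO-labelled replicate 3, WT-labelled replicate 2 or WT-labelled replicate 3 the Ly6d adjusted p was above 0.05 and at most 0.0875. Of the G2/M list, 18 of 20 genes were higher and 0 lower, with a median of 1.00, and of the S phase list 10 of 20 were higher.

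Of the stem cell list, 6 of 9 tested genes were lower in Il7r or Rag1 positive cells and 0 higher. Hlf fell from 124, 184, 239, 216 and 143 normalised CPM in gated cells to 38.8, 34.8, 81.1, 55.8 and 33.7, with no overlap, at a log2 fold change of -1.94 (SE 0.11, adjusted p = 7.21e-16). Dach1 differed by -1.96, Mecom by -1.18 and Spi1, the myeloid and early B cell factor PU.1, by -0.51 (SE 0.10, adjusted p = 0.000352). The lymphoid priming list divided, with 5 of 16 higher and 2 lower. Blk, a kinase of B cells, was higher by 2.69, while Gimap6 and Il2rg, a shared cytokine receptor chain, were lower.

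Cells that passed every condition but the granule one carried less of the lymphoid program and more of the granulocyte and monocyte genes than gated cells. Of 11009 genes tested, 825 (7.49%) were higher and 606 (5.50%) were lower in them (edgeR's quasi-likelihood test, library block, Benjamini-Hochberg). They were deeper as well, with medians of 11617 to 16340 UMIs. Thinned to 3000 UMIs, when 4 libraries could be used, 4 genes were higher and 4 lower of 5984 tested, with fewer libraries, genes and cells than in the full comparison.

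Of the lymphoid priming list, 13 of 15 genes were lower in granule-positive cells and 1 was higher, with a median log2 fold change of -0.44. Arpp21 stood at 14.2, 16.5 and 27.3 normalised CPM in the granule-positive cells of KO-labelled libraries against 140, 114 and 117 in gated cells. In WT-labelled libraries it stood at 59.3, 109, 59.5 and 48.6 against 165, 194, 184 and 113, and the log2 fold change was -1.51 (SE 0.23, adjusted p = 0.00550). Ccr9, a homing receptor of thymus-seeding progenitors, differed by -2.75 (SE 0.21, adjusted p = 9.27e-14) and Blnk by -1.60 (SE 0.24, adjusted p = 3.16e-05). Of the granulocyte and monocyte genes not used by the gate, 6 of 10 tested were higher and 0 lower. Mpo was higher by 1.30 (SE 0.14, adjusted p = 0.000229), at 487 to 1094 against 165 to 398 CPM. F13a1, a clotting factor gene of monocytes, was higher by 2.70 (SE 0.24, adjusted p = 1.30e-14). Blnk and F13a1 were not called when thinned to 3000 UMIs. Without the library block none of Arpp21, Blnk, Mpo and F13a1 was called. Of the G2/M list, 17 of 20 were higher, with a median of 0.68.

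Within the gate, cells with more Dntt carried more B-lineage and fewer stem cell transcripts. The gated cells of each of the 5 libraries with at least 100 of them were ranked by Dntt per UMI and split into 3 groups of equal size, and the high-Dntt group was set against the low-Dntt group. This is a description with no test, because Dntt chose both the cells and their order. The groups held 35 to 217 cells each, with median depths of 8371 to 11287.5 UMIs in the low-Dntt group and 7194 to 10190 in the high-Dntt group. Of 6 B-lineage genes measured, 4 were higher in all 5 libraries and 0 lower. Of 8 stem cell genes, 6 were lower in all 5 and 0 higher. Over all 9783 genes, 4.77% were higher and 5.41% lower in all 5.

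Arpp21 stood at 260 ± 101 CPM in the high-Dntt group and 76.9 ± 43.6 in the low-Dntt group (SD, n = 5 libraries), a mean log2 ratio of 1.71 ± 0.29 with a pseudocount of 10 CPM. Ebf1 stood at 35.7 ± 23.2 against 2.83 ± 3.03 CPM, Rag2 at 19.0 ± 8.28 against 5.10 ± 4.6, and Blnk at 32.6 ± 10.5 against 6.77 ± 3.41. Xrcc6 stood at 170 ± 58.6 against 90.9 ± 31.0 CPM, and was the only one of 10 genes of the end-joining list higher in all 5 libraries. Hlf stood at 86.6 ± 32.6 CPM in the high-Dntt group and 287 ± 112 in the low-Dntt group. Muc13 stood at 34.6 ± 20.7 against 67.9 ± 11.9 CPM. Satb1 and Flt3 differed less, with mean log2 ratios of 0.40 ± 0.11 and 0.35 ± 0.20. None of the 20 S phase genes and 1 of the 20 G2/M genes was higher in all 5 libraries.

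**Figure D3:**
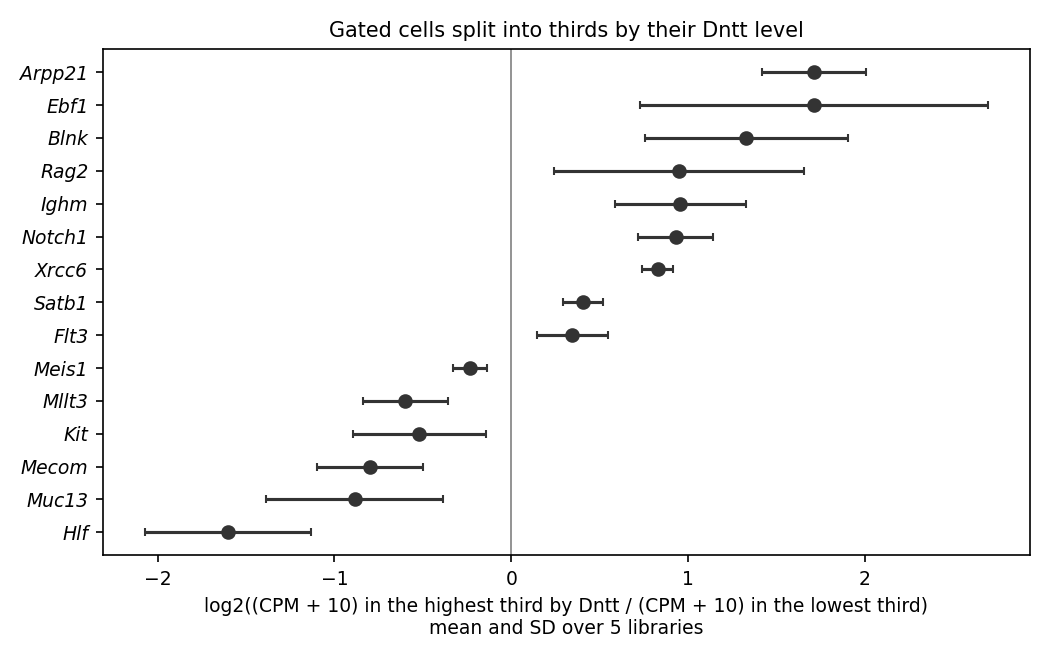
Mean log2 ratio of (CPM + 10) in the high-Dntt group of gated cells over the low-Dntt group, with the SD over 5 libraries, for 15 genes. Arpp21, Ebf1 and Blnk lie to the right at 1.33 to 1.71 and Hlf lies farthest left at -1.60.

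Between the labels, the gated cells differed in few genes, and the calls depended on the granule condition. With the barcode list as a covariate, 3 of 10022 tested genes (0.0299%) were higher and 8 (0.0798%) lower in the KO-labelled libraries (edgeR's quasi-likelihood test, Benjamini-Hochberg). Without the covariate 0 genes were called, with 175 at an unadjusted p below 0.05, and DESeq2 with the covariate called 7. Gated cells of KO-labelled replicates 1 and 2 were shallower than those of every WT-labelled library and those of KO-labelled replicate 3 deeper than WT-labelled replicate 4, by the medians given above. The KO-labelled sums were small, at 124478, 159825 and 978817 UMIs against 1096949 to 5683315. Leaving out 1 library at a time gave 1 to 28 calls, with 1, Top2a, without KO-labelled replicate 1 and 28 without KO-labelled replicate 3. With 1 Dntt UMI allowed, Top2a differed by -0.90 (adjusted p = 0.100) and Mki67, Angpt1 and Blnk were not called.

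Of the 8 genes called lower, 2 belong to the G2/M list, Top2a and Mki67. Top2a, the topoisomerase of dividing cells, stood at 115, 106 and 125 normalised CPM in KO-labelled and at 402, 338, 268 and 274 in WT-labelled libraries. The groups did not overlap, and the log2 fold change was -1.38 (SE 0.21, adjusted p = 0.00115). Mki67, the proliferation marker Ki-67, stood at 38.4, 135 and 30.4 against 336, 273, 224 and 78.3, which overlapped, with a log2 fold change of -1.50 (SE 0.26, adjusted p = 0.00415). Smc4, a condensin subunit, differed by -1.0 and Pclaf, a partner of PCNA, by -1.18, with adjusted p of 0.0339 and 0.0168. Tubb4b, a tubulin, differed by -1.03 (adjusted p = 0.0339), and Esco2, a cohesin acetyltransferase named after its value was seen, by -2.82 (adjusted p = 0.0213). Of the G2/M list all 20 genes were tested, 2 were called lower and 0 higher, all 20 had a negative sign, and the median was -0.87 against -0.04 over all genes. The summed G2/M level was 554, 895 and 1031 CPM under the KO label and 2234, 1828, 1431 and 1569 under the WT label, with no overlap. Of the S phase list 0 of 20 were called, 19 had a negative sign, and the median was -0.25.

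None of those genes was called without the granule condition. Top2a then stood at 454, 387 and 264 CPM in KO-labelled and at 420, 400, 365 and 304 in WT-labelled libraries, with a log2 fold change of 0.03 (adjusted p = 0.988). Mki67 differed by -0.15 (adjusted p = 0.855) and Smc4 by -0.17 (adjusted p = 0.842). The summed G2/M level without the condition was 2238, 2368 and 2020 CPM against 2332, 2245, 2194 and 2008, which overlapped. With the gate applied to cells thinned to 3000 UMIs, Top2a differed by -0.38 and Mki67 by -0.36, and neither was called. The granule limits are easier to meet at that depth, so this setting also loosened the granule condition. The part of the granule condition in the label difference of these genes was not tested.

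The other called genes were of mixed function. Angpt1, the ligand of the Tie2 receptor, stood at 476, 488 and 284 normalised CPM against 901, 1342, 1095 and 479, with a log2 fold change of -1.05 (SE 0.19, adjusted p = 0.00590). The WT-labelled replicate 4 value lay between the KO-labelled ones, and without the granule condition Angpt1 differed by -0.65 (adjusted p = 0.166). Ankrd6, a regulator of Wnt signalling, stood at 7.68, 11.8 and 7.02 against 31.8, 49.7, 48.6 and 28.1 CPM, with no overlap, and differed by -2.04 (SE 0.44, adjusted p = 0.0339). In KO-labelled replicate 1 the Ankrd6 level is that of 1 UMI. Ankrd6 kept its sign in all 18 alternatives in which it was tested, at -2.49 to -1.70, and was called in 7 of them.

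Blnk stood at 76.8, 76.5 and 32.8 normalised CPM under the KO label and at 17.6, 18.0, 18.5 and 13 under the WT label, with no overlap and a log2 fold change of 1.75 (SE 0.32, adjusted p = 0.00590). Without the granule condition Blnk differed by 0.06 (adjusted p = 0.984), and thinned to 3000 UMIs by -0.02. Pim1, a kinase induced by cytokines, stood at 645, 471 and 412 against 343, 369, 277 and 169 CPM, with a log2 fold change of 0.93 (SE 0.18, adjusted p = 0.0157), and differed by 0.60 without the granule condition (adjusted p = 0.245). Gm15987, a gene without a standard name, stood at 138, 35.3 and 18.7 against 10.6, 9.36, 9.59 and 5.58 CPM, and its log2 fold change was 2.56 (SE 0.42, adjusted p = 0.00208). It was also higher without the granule condition, by 2.15 (SE 0.20, adjusted p = 0.000249).

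**Figure D4:**
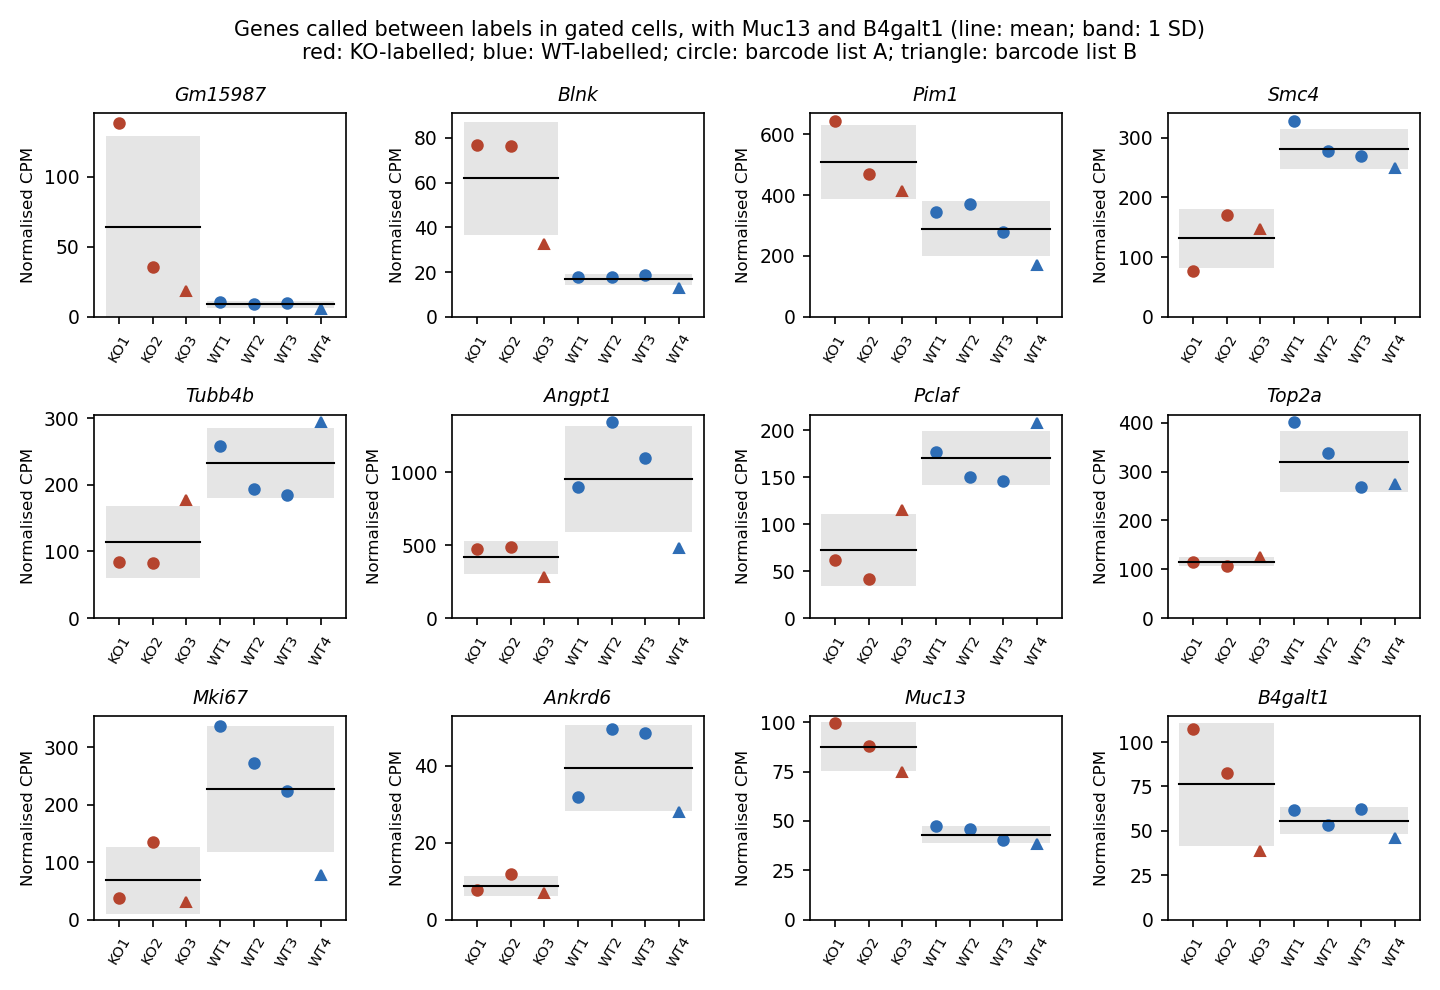
Normalised CPM of the 10 named genes called between labels in gated cells, with Muc13 and B4galt1, which were not called, each point 1 library, the line the mean and the band 1 SD. Top2a lies at 106 to 125 in KO-labelled and 268 to 402 in WT-labelled libraries, and B4galt1 overlaps between them.

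Muc13, a membrane mucin named in the series title, stood in gated cells at 99.8, 88.2 and 74.9 normalised CPM under the KO label and at 47.7, 46.1, 40.3 and 38.4 under the WT label. The groups did not overlap, but the gene did not pass, at a log2 fold change of 1.02 (SE 0.24, adjusted p = 0.104). The KO-labelled values of replicates 1 and 2 rest on 13 and 15 UMIs. Without the granule condition Muc13 was higher by 1.04 (SE 0.13, adjusted p = 0.00147), at 110, 105 and 130 against 55.0, 65.5, 46.3 and 60 CPM. Between neighbours, Muc13 was lower in gated than in Dntt-zero cells, at -1.53 (SE 0.09, adjusted p = 1.68e-19), in 7 of 7 libraries. It was lower again in Il7r or Rag1 positive cells, at -1.33 (SE 0.19, adjusted p = 4.63e-06), but at -0.53 when thinned to 3000 UMIs (adjusted p = 0.665), and higher in granule-positive cells, at 0.78 (SE 0.11, adjusted p = 7.97e-08). Neither of these Muc13 calls was made without the library block. The label difference of Muc13 did not differ detectably between gated and Dntt-zero cells (0.22, SE 0.21, adjusted p = 0.966).

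B4galt1 itself stood in gated cells at 107, 82.4 and 38.6 normalised CPM under the KO label and at 61.8, 53.3, 62.0 and 45.9 under the WT label, which overlapped (0.26, SE 0.26, adjusted p = 0.999). Of its family of galactosyltransferases, 6 of 7 were tested and 0 called between labels. Of the Wnt list 16 of 21 were tested and 0 called, with a median of -0.08. Against Dntt-zero cells, B4galt4 and B4galt6 were lower in gated cells, at -0.56 (adjusted p = 0.0214) and -0.50 (adjusted p = 0.00777). B4galt4 was called in 8 of 13 alternatives and B4galt6 in 10 of 13, with B4galt6 at -0.16 when thinned to 3000 UMIs.

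Without the granule condition the label comparison called other genes. Of 11510 tested, 35 (0.304%) were higher and 26 (0.226%) lower, and 2 of these, Ankrd6 and Gm15987, were among the 11 called with it. Of the granulocyte and monocyte list 4 of 10 were higher and 0 lower, and Mpo stood at 681, 904 and 891 CPM under the KO label and at 441, 444, 384 and 542 under the WT label, with a log2 fold change of 0.87 (SE 0.14, adjusted p = 0.0120). Irf8 was higher by 1.10 and Csf1r by 1.75. Arpp21 stood at 20.7, 26.9 and 28.8 CPM against 109, 161, 115 and 59.6, and differed by -1.87 (SE 0.29, adjusted p = 0.0279). Ccr9 differed by -2.64 (SE 0.34, adjusted p = 0.00147), Bank1, a B cell scaffold, by -1.96 (adjusted p = 0.0183) and Hlf by -0.80 (adjusted p = 0.0128). With the condition, Arpp21 stood at 104 to 153 CPM under the KO label and 98.9 to 205 under the WT label. Of these genes, Hlf and Csf1r were not called between granule-positive and gated cells. The part of the granule-positive cells in these label differences was not tested.

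**Figure D5:**
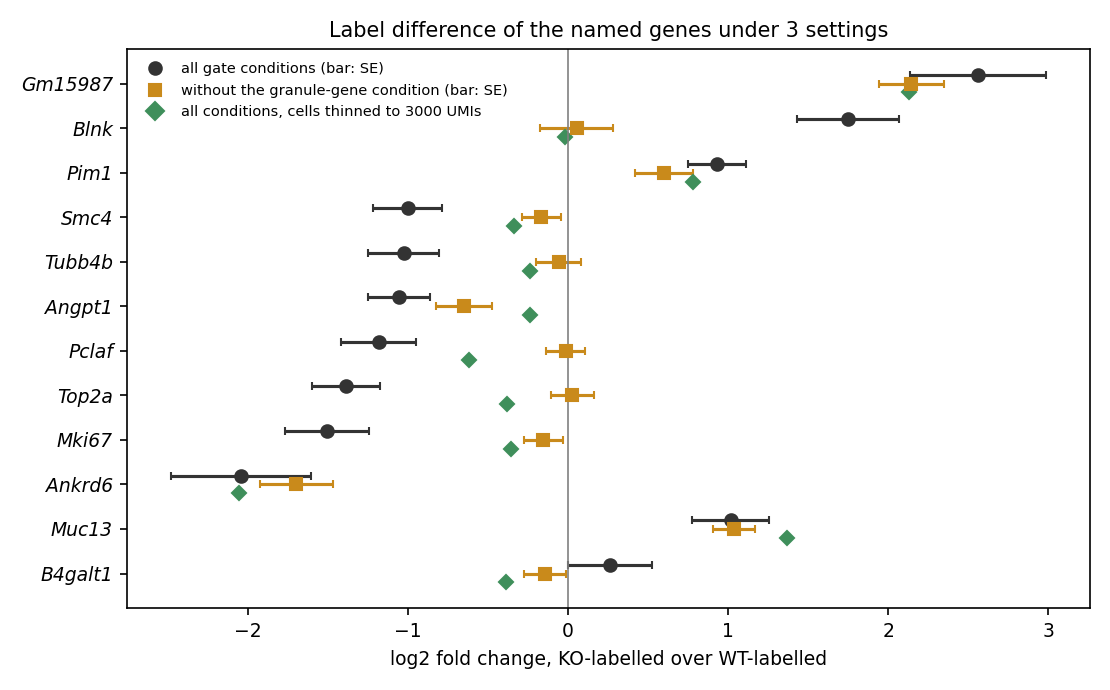
Log2 fold change between labels for the same 12 genes with every gate condition and without the granule-gene condition (both with SE). The third setting is cells thinned to 3000 UMIs before the gate was applied. Top2a, Mki67, Smc4 and Blnk move to within 0.38 of 0 under the other settings, while Ankrd6, Gm15987 and Muc13 keep their side of 0 at sizes of 1.02 or more.

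The label difference was also compared between gated cells and Dntt-zero cells of the same libraries. Of 11247 genes, 21 (0.187%) were relatively higher and 22 (0.196%) relatively lower in the gated cells of KO-labelled libraries (edgeR's quasi-likelihood test of the interaction, Benjamini-Hochberg), against 4 by DESeq2 and 3 with cells thinned to 3000 UMIs. Parp8 had the smallest p, with an interaction of 0.82 (SE 0.12, adjusted p = 2.04e-06). It stood at 773, 864 and 303 normalised CPM in gated cells under the KO label and at 516, 706, 508 and 212 under the WT label, and at 264, 459 and 99.8 against 374, 536, 344 and 142 in Dntt-zero cells. Satb1 had an interaction of 0.74 (SE 0.14, adjusted p = 0.000277), from the values given above, and its adjusted p was 0.110 without KO-labelled replicate 3 and 0.0855 without WT-labelled replicate 4. Of the lymphoid priming list, 15 genes were tested, with 9 positive and 6 negative signs, and 2 were called, Satb1 and Notch1, at 0.87. Of 6 B-lineage genes, 4 had a positive and 2 a negative sign, and 1 was called, Arpp21, at 1.44. The 10 tested genes of the end-joining list had 5 signs each way, with Xrcc6 called relatively higher by 0.81 and Hmgb2 called relatively lower. Top2a, Mki67 and Angpt1 were relatively lower, at -0.98 (SE 0.16), -1.23 (SE 0.21) and -0.68 (SE 0.12). In Dntt-zero cells Top2a stood at 203, 190 and 173 CPM under the KO label and at 278, 243, 230 and 223 under the WT label.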

How the data were processed

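For each of 7 libraries the authors deposited raw UMI counts over 32285 genes in a sparse matrix, made with Cell Ranger 7.0.0 on mm10 per the submitters' processing notes, which also name Seurat 4.4.0. The counts were used as deposited, and no filter on cells by the authors is given in the sources used here. The gated cells and the gene lists were chosen with earlier results of these data known. Raw counts were summed over the cells of each gate and library and tested with edgeR 4.0.16 in R 4.3.3 (quasi-likelihood F test, TMM, filterByExpr, robust fit, two-sided, Benjamini-Hochberg adjustment over all tested genes, threshold 0.05). The label fit had the barcode list as a covariate, and the fits between neighbouring gates had the library as a block, with the gate genes left out. CPM in those comparisons are TMM-normalised, and elsewhere plain sums scaled by the library total of the gate. Shares were compared by the two-sided exact permutation test over libraries. The genes named were the called genes averaging 20 CPM or more, up to 10 in each direction by size (between neighbours only those moving alike in every library), the 5 smallest p of a direction with fewer than 5 calls, 5 genes for the interaction, Muc13, B4galt1 and its family, and list members. The other genes named were picked after their values were seen. Counts were also simulated with some genes changed by a log2 fold change of 2 and the same assumed dispersion in every gene. The label fit recovered 84.3% of 191 changed genes, with 4 false calls among 9776 genes. The fit against Dntt-zero cells recovered 100% of 191, with 12 false calls among 10983, and the interaction 66.2% of 195, with 9 among 10920. The dispersion was not estimated from these data, and many label differences named above were smaller than 2. These rates therefore do not give the power or error of the fits reported here. The alternatives were DESeq2 1.42.0, no gene filter, other thresholds on cells and on Dntt, thinned cells, list A alone, each library left out and a replicate block. Gene positions are from GENCODE M21 on GRCm38. Some genes of the lists are counted but not reported here by name.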

Additional observations from a re-analysis of the deposited data

Results flagged for a closer look

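The level of Blnk in the gated cells of WT-labelled replicate 4, 13 normalised CPM, stood apart from the other 3 WT-labelled libraries at 17.6 to 18.5. Of 21 group values looked at, 1 stood apart in this way, and chance gives about 1 in 20.

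The label difference in gated cells differed from that in Dntt-zero cells for 5 named genes by the interaction test of edgeR. Parp8 was relatively higher by 0.82 and Satb1 by 0.74 on the log2 scale. Top2a, Angpt1 and Mki67 were relatively lower, at -0.98, -0.68 and -1.23. With cells thinned to 3000 UMIs none of the 5 passed the threshold, with values of 0.32, 0.53, -0.30, 0.10 and -0.16 in that order.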

How the results depend on the processing

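The lower gated share under the KO label kept its direction in every alternative run. It was -10.9 percentage points as a share of Flt3-positive low-granule cells (p = 0.0571), -8.20 in list A alone, and -7.98 to -7.13 with 1 library left out (exact permutation tests, p = 0.0667 or 0.100, the smallest at that size). The replicate block gave -7.98 (exact sign-flip p = 0.250, smallest possible). Deviations from the label means correlated at 0.12, 0.41 and -0.34 between same-numbered libraries of the 2 labels. The barcode list was not removed first, and the libraries numbered 3 are of different lists, so these values cannot show or exclude pairing. The numbers were not taken to pair the libraries.

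The label difference in gated cells gave 11 calls, and 0 without the list covariate, 53 without a gene filter, 7 by DESeq2, 2 with at least 3 Dntt UMIs, 2 thinned and 61 without the granule condition. It gave 46 with a replicate block and the list, 5 with a replicate block alone, and 1 to 28 with 1 library left out. Top2a reversed to 0.027 without the granule condition, Blnk to -0.017 when thinned, and the interaction of Angpt1 to 0.10 when thinned. The cause was not tested.

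Without the library block (no replicate block), gated against Dntt-zero cells gave 279 calls in place of 2365, Il7r or Rag1 positive against gated cells 1 in place of 1192, and granule-positive against gated cells 1 in place of 1431. For the last 2, DESeq2 gave 501 and 912 and thinning 180 and 8. The Il7r or Rag1 comparison gave 331 in list A alone and 601 to 1158 with 1 library left out, lowest without WT-labelled replicate 4. The interaction gave 43 calls, 4 by DESeq2, 13 in list A alone, 3 when thinned and 19 to 58 with 1 library left out, lowest without WT-labelled replicate 2. A mitochondrial limit of 5% was not run for the label fit, since too few KO-labelled cells remained. Depth limits every gene level in KO-labelled replicates 1 and 2, whose gated sums are 124478 and 159825 UMIs.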
